A study of Danio rerio with 8 samples.

Results

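The genes described here are 10 heat shock and cochaperone genes, taken by symbol from a table of 31901 zebrafish genes. They are hsp70l, hsp90aa1.2, dnajb1b, bag3 and hspb1, which are classed here as heat-inducible, and hspa8, hsp90ab1, hspa9, hspd1 and hspe1, which are classed as constitutive. The classes are labels given to these genes, and whether heat induces each of them was not measured here. All 10 were present in the table, and all 10 passed the filter on low counts.

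The RNA came from 4 libraries of larvae with a mechanical spinal cord lesion, collected 1 day later, and from 4 libraries of unlesioned larvae. Both groups were 4 days past fertilization, and both carried BAC(pdgfrb:Gal4ff)ncv24;UAS:GFP. In this line the pdgfrb promoter on a bacterial artificial chromosome drives Gal4ff, which switches on GFP, so a cell is collected for its transgene activity and not for a measured Pdgfrb protein. The labels name the sorted GFP-positive cells as myoseptal and perivascular. Both groups went through trypsin dissociation and flow sorting before RNA was taken. Neither the number of larvae behind a library nor their clutches are given in the labels. Every p-value here thus reflects how much these 8 libraries vary, and that variation may be partly technical. Libraries 1 and 2 were the most alike within each group, with a difference (chi-square per gene) of 55.05 in lesioned and 51.13 in unlesioned libraries. Other combinations within a group gave 195.8 to 286.8, so the 4 libraries of a group may not be equally independent. In such bulk samples, fewer cells of a type and less RNA per cell cannot be told apart.

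Heat shock proteins are chaperones that bind unfolded proteins and help them fold. HSP70 proteins work with J-domain partners that deliver clients and with nucleotide exchange factors that release them, and HSP90 proteins finish the folding of kinases, receptors and other clients. When unfolded protein builds up, heat shock factor 1 switches on the inducible genes within minutes, while constitutive relatives are transcribed in unstressed cells. Mitochondria hold their own HSP70 and a barrel-shaped chaperonin with a lid.

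Total counts ranged from 19552807 to 25358885 per library. Levels are given as CPM, a library's counts scaled to a common total after TMM normalization, and per kilobase of exon as RPKM where genes are compared. The reporter gene pdgfrb, the receptor whose promoter drives the transgene, had 185, 199, 281 and 114 CPM in lesioned libraries and 207, 241, 226 and 177 CPM in unlesioned libraries. Its log2 fold change was -0.13 ± 0.27 (SE, n = 4 each; edgeR adjusted p = 0.925). In edgeR's quasi-likelihood test over 15759 genes, 3 genes (0.019%) were higher after lesion and 0 (0%) were lower at an adjusted p under 0.05. Before adjustment, 957 genes (6.07%) had p under 0.05 and higher values after lesion, and 864 (5.48%) had lower values, and DESeq2 called 406 higher and 272 lower. Scaling by library size alone moved the median over all genes to 0.12 on the log2 scale, against -0.04 with TMM, and the unadjusted counts to 1316 higher and 524 lower. The signs of all 10 members were the same under both scalings.

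No member of the 10 passed the adjusted threshold in either direction in edgeR. At an unadjusted p under 0.05, 2 members were higher, hspd1 and hspe1, and 1 was lower, dnajb1b. The shares of all genes tested were 6.07% higher and 5.48% lower. DESeq2 called 1 member, hspd1, higher, among 406 genes higher over the whole table. All 5 inducible genes had negative log2 fold changes, with a median of -1.10. All 5 constitutive genes had positive ones, with a median of 0.15, and the median of all genes tested was -0.04. Of all genes tested, 7514 were positive and 8245 negative. The values of hspa8, hsp90ab1, hspa9 and bag3 lay within their SE of 0. Those of hspa8, hspa9 and bag3 changed sign when a single library was left out. The members were chosen with earlier results of these data known, so the split by class is only described. The groups did not overlap for 2 members, hspd1 and hspe1, both higher after lesion, whereas 839 of all genes tested (5.32%) had non-overlapping groups with lesioned higher and 616 (3.91%) with lesioned lower.

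**Figure D1:**
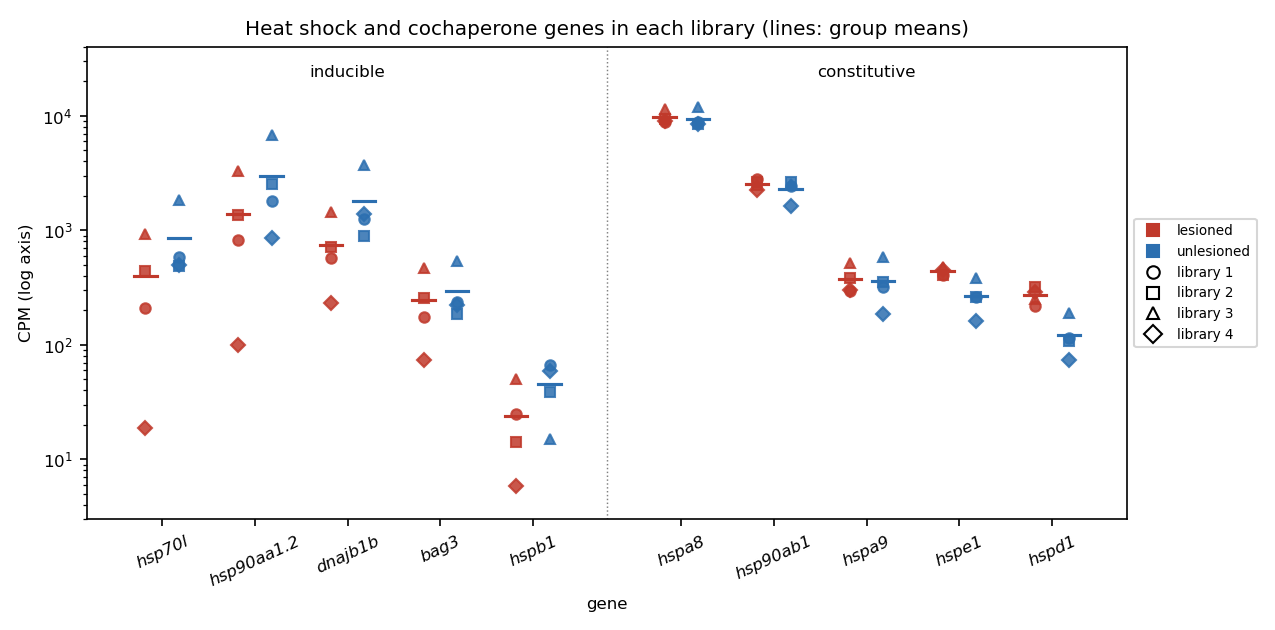
Level of each of the 10 genes in CPM on a log axis, with 1 point per library and a line at each group's mean, lesioned left of unlesioned. The inducible genes spread widely, with hsp70l between 18.7 and 1857 CPM, while hspa8 stays between 8449 and 11940 CPM.

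hsp70l, an HSP70 gene that zebrafish cells switch on upon heat shock, lies on chromosome 8 from 4798158 to 4800911 on the plus strand of GRCz11. It had 210.0, 437, 922 and 18.7 CPM in lesioned libraries 1 to 4 and 587, 484, 1857 and 503 CPM in unlesioned libraries 1 to 4. The groups overlapped: lesioned library 4 was the lowest of all and unlesioned library 3 the highest, 99.2 times apart. The means were 397 ± 389 CPM after lesion and 858 ± 668 CPM in unlesioned cells (SD, n = 4 each). The log2 fold change was -1.11 ± 0.88 (SE; edgeR adjusted p = 0.717), so the difference was not larger than the spread between libraries. Without lesioned library 4 and unlesioned library 3 together, a setting chosen after the values were seen, it was -0.00. With the replicate number as a block it was -1.68 (edgeR adjusted p = 0.350, the lowest of the 20 settings tried, the highest being 0.9998). Without lesioned library 4 it was -0.71, without unlesioned library 3 it was -0.41 and without lesioned library 3 it was -1.95.

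hsp90aa1.2 encodes a cytosolic HSP90 of the alpha type and spans bases 53967350 to 53981626 of chromosome 20 (minus strand). Its levels were 828, 1373, 3311 and 99.6 CPM in lesioned libraries and 1820, 2522, 6864 and 853 CPM in unlesioned libraries. The highest and lowest libraries were those of hsp70l, 68.9 times apart, and the groups overlapped. This came to a log2 fold change of -1.10 ± 0.88 (SE; edgeR adjusted p = 0.717). With the replicate number as a block it was -1.51 ± 0.37 (SE; edgeR adjusted p = 0.169). Leaving out the same pair of libraries gave 0.09, a change of sign. Here too the pair holds the lowest lesioned and the highest unlesioned level, so a rise was built in. The log2 fold change was -0.71 without lesioned library 4, -0.31 without unlesioned library 3 and -1.98 without lesioned library 3.

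dnajb1b, a J-domain partner that delivers clients to HSP70, spans bases 55745878 to 55750208 of chromosome 1 (minus strand). It had 569, 720, 1447 and 231 CPM in lesioned libraries and 1257, 898, 3727 and 1377 CPM in unlesioned libraries. Lesioned library 3 stood above 3 of the unlesioned libraries, and lesioned library 4 was again the lowest. Its log2 fold change was -1.29 ± 0.57 (SE; edgeR unadjusted p = 0.0474, adjusted p = 0.424). With the replicate number as a block it was -1.34 ± 0.34 (SE; edgeR adjusted p = 0.172). Without its lowest lesioned library 4 and its highest unlesioned library 3, which raises it by construction, it was -0.37. It was -0.67 without unlesioned library 3 alone and -0.99 without lesioned library 4 alone. Of its 2118 exon bases, 834 (39.4%) are shared with adgre10, and the counting ignored strand, so reads from both genes cannot be told apart there. How such reads were counted was not checked, so the level of dnajb1b per kilobase is uncertain.

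bag3 encodes a nucleotide exchange factor of HSP70 that takes part in the clearance of damaged proteins, and it spans bases 25486608 to 25498661 of chromosome 13 (plus strand). It had 174, 256, 474 and 73.2 CPM in lesioned libraries and 237, 185, 540.2 and 223 CPM in unlesioned libraries. The groups overlapped over most of their range, and the same libraries were highest and lowest. For bag3 the log2 fold change was -0.28 ± 0.53 (SE; edgeR adjusted p = 0.915). With the replicate number as a block it was -0.43 ± 0.33 (SE; edgeR adjusted p = 0.62). It was 0.49 without lesioned library 4 and unlesioned library 3, which raises it by construction. Its sign also changed without either one alone, to 0.03 without lesioned library 4 and 0.18 without unlesioned library 3, and it was -0.83 without lesioned library 3.

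hspb1, a small heat shock protein that holds unfolded proteins without ATP, spans bases 3568016 to 3584815 of chromosome 5 (minus strand). It had 24.9, 14.0, 49.9 and 5.88 CPM in lesioned libraries and 66.6, 38.9, 15.1 and 59.6 CPM in unlesioned libraries. Its lowest library was also lesioned 4, but its highest was unlesioned 1, and unlesioned 3 was the lowest of the unlesioned libraries. The log2 fold change was -0.93 ± 0.63 (SE; edgeR adjusted p = 0.648). It was -1.59 without lesioned library 3 and -0.60 without lesioned library 4. With the replicate number as a block it was -1.22 ± 0.79 (SE; edgeR adjusted p = 0.5535).

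The inducible genes thus shared their extreme libraries. All 5 were lowest in lesioned library 4, as were 16.1% of all genes tested, and 4 of 5 were highest in unlesioned library 3, as were 18.1% of all genes. Of the 27 reporter cell markers tested, 14 were also lowest in lesioned library 4, and 5 were highest in unlesioned library 3, and their part in the low values there was not tested. The 4 genes with both extremes were hsp70l, hsp90aa1.2, dnajb1b and bag3, while 3.76% of all genes tested had both. These libraries carry different replicate numbers. The labels do not say that libraries of the same number belong together. Within same-numbered pairs, hsp70l, hsp90aa1.2 and dnajb1b had lower levels in the lesioned library of all 4. How many of all genes did so was not counted. The log2 ratios were -1.48, -0.15, -1.01 and -4.74 for hsp70l, -1.13, -0.88, -1.05 and -3.10 for hsp90aa1.2, and -1.14, -0.32, -1.36 and -2.57 for dnajb1b, in pairs 1 to 4. bag3 was lower in 3 pairs and higher in pair 2, and hspb1 was lower in 3 pairs and higher in pair 3.

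**Figure D2:**
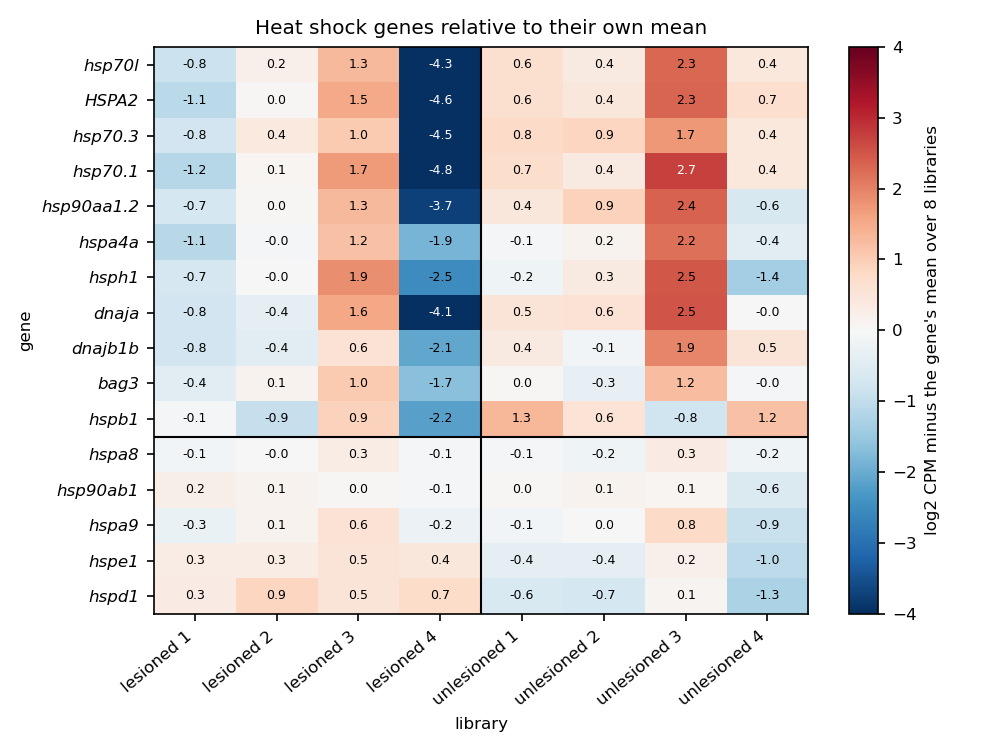
Log2 CPM of 16 genes in each library minus that gene's mean over the 8 libraries, lesioned libraries left of unlesioned ones, with the colour scale ending at 4 in either direction. Besides the members, HSPA2, hsp70.3, hsp70.1 and dnaja were picked for their likeness to hsp70l, and hspa4a and hsph1 were added by hand. The pattern they share is thus partly one of selection. Other HSP70 and HSP110 genes, among them hspa4b with a positive log2 fold change, are not shown. Lesioned library 4 is low and unlesioned library 3 high for the inducible HSP70 and HSP90 genes, while hspa8 and hsp90ab1 span a far narrower range, with hspa8 highest in unlesioned library 3 and hsp90ab1 lowest in unlesioned library 4.

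hspa8 encodes the constitutive cytosolic HSP70, which folds new proteins and uncoats clathrin vesicles, and it spans bases 29849497 to 29858018 of chromosome 10 (plus strand). It had 8792, 9354, 11550 and 9101 CPM in lesioned libraries and 8933, 8476, 11940 and 8449 CPM in unlesioned libraries. It ranked 5 by mean CPM among the genes tested. Its highest library was 1.41 times its lowest, and the log2 fold change was 0.04 ± 0.20 (SE; edgeR adjusted p = 0.977). It was -0.06 without lesioned library 3. Of its exon bases, 9.25% are shared with jhy. The related entry hspa8b, named after its values were seen, averaged 6.5 CPM after lesion and 15.2 CPM in unlesioned cells, with overlap. Its log2 fold change was -1.23 ± 0.53 (SE; edgeR adjusted p = 0.407).

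hsp90ab1, the constitutive cytosolic HSP90 of the beta type, spans bases 51197758 to 51213829 of chromosome 20 (plus strand). It had 2834, 2648, 2480 and 2262 CPM in lesioned libraries and 2458, 2624, 2521 and 1626 CPM in unlesioned libraries. Unlesioned library 4 was the lowest and the other libraries lay close together. Its log2 fold change was 0.15 ± 0.21 (SE; edgeR adjusted p = 0.872), and 0.01 without unlesioned library 4. Its pair with the inducible hsp90aa1.2 can be read in single libraries: in lesioned library 4 hsp90aa1.2 had 99.6 CPM and hsp90ab1 2262 CPM, whereas in unlesioned library 3 they had 6864 and 2521 CPM.

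hspa9 encodes the mitochondrial HSP70 that pulls imported proteins into the matrix, and it spans bases 12142813 to 12168897 of chromosome 14 (plus strand). It had 293, 384, 523 and 299.9 CPM in lesioned libraries and 321, 352, 591 and 187 CPM in unlesioned libraries. The groups overlapped, with unlesioned libraries 3 and 4 at the top and the bottom. For hspa9 the log2 fold change was 0.05 ± 0.34 (SE; edgeR adjusted p = 0.982), with a negative sign without lesioned library 3, at -0.16, or without unlesioned library 4, at -0.17.

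hspd1 encodes the mitochondrial chaperonin HSP60, the barrel in which imported proteins fold, and it spans bases 32286605 to 32300783 of chromosome 9 (minus strand). It had 219, 319, 253 and 290.0 CPM in lesioned libraries and 115, 109, 188 and 73.4 CPM in unlesioned libraries. Every lesioned library was above every unlesioned one. The means were 270.4 ± 43.5 CPM after lesion and 121 ± 48.1 CPM in unlesioned cells (SD, n = 4 each), a fitted fold of 2.23. The log2 fold change was 1.16 ± 0.29 (SE), with an unadjusted p of 0.00249 and an adjusted p of 0.183 in edgeR, and an adjusted p of 0.0297 in DESeq2. Under the 20 other settings tried its log2 fold change lay between 0.97 and 1.45 and its adjusted p between 0.0297, the DESeq2 value, and 0.892.

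hspe1 encodes HSP10, the lid of that chaperonin, and spans bases 32301017 to 32305007 of chromosome 9 (plus strand). It begins 233 bases from hspd1, and the pair is transcribed in opposite directions. hspe1 had 408, 411, 479 and 454 CPM in lesioned libraries and 261, 262, 387 and 162 CPM in unlesioned libraries, again with no overlap. The log2 fold change was 0.71 ± 0.26 (SE; edgeR unadjusted p = 0.0209, adjusted p = 0.317), between 0.53 and 0.94 under the same 20 settings. The lid's RPKM divided by the barrel's was 2.95, 2.04, 3.005 and 2.48 in lesioned libraries and 3.59, 3.82, 3.27 and 3.51 in unlesioned libraries. This ratio was lower in each lesioned library than in every unlesioned one. It was not tested, and how many other gene pairs did so was not counted. The log2 fold changes behind it were 1.16 ± 0.29 for hspd1 and 0.71 ± 0.26 for hspe1 (SE). Both genes were measured in the same libraries, so these SE do not give the uncertainty of the ratio.

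**Figure D3:**
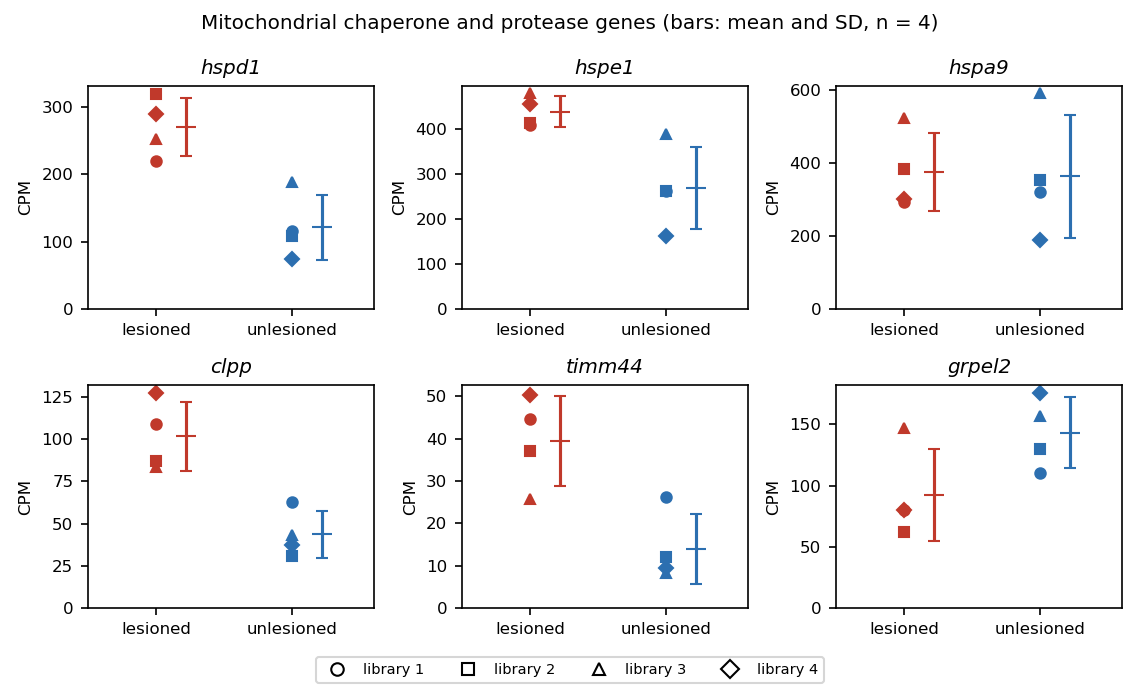
CPM of the 3 mitochondrial members hspd1, hspe1 and hspa9, and of clpp, timm44 and grpel2, in each library, with the mean and SD of each group, lesioned left of unlesioned. Lesioned libraries lie above all unlesioned ones for hspd1, hspe1 and clpp, and the groups overlap for hspa9, timm44 and grpel2.

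Followed from library to library, the classes differed in spread. CPM is not scaled to gene length, so the class means do not show which class had the higher level. The same holds for the sign of the inducible minus the constitutive mean. The mean log2 CPM of the 5 inducible genes was 7.73, 8.10, 9.31 and 5.50 in lesioned libraries and 8.85, 8.57, 9.69 and 8.57 in unlesioned libraries. That of the 5 constitutive genes was 9.84, 10.03, 10.14 and 9.91 in lesioned libraries and 9.52, 9.53, 10.04 and 8.96 in unlesioned libraries. The constitutive mean includes hspd1 and hspe1, which were higher after lesion without overlap. The inducible minus the constitutive mean was -2.11, -1.93, -0.82 and -4.41 after lesion and -0.66, -0.96, -0.35 and -0.39 in unlesioned cells. Lesioned library 3, at -0.82, lay above unlesioned library 2, at -0.96, so the groups overlapped by that library. The median log2 fold change of the inducible genes minus that of the constitutive ones was -1.25. It was -0.85 in libraries 1 and 2 alone and -1.40 in libraries 3 and 4 alone, and it lay between -2.004 and -0.49 under all settings tried. These subsets differ in a technical measure: libraries 3 and 4 held 86 and 64 spike-in counts after lesion and 158 and 87 in unlesioned cells, and libraries 1 and 2 held 3 and 2 after lesion and 2 and 0 in unlesioned cells. Within libraries 1 and 2 the log2 fold change was -0.73 for hsp70l, 0.65 for hspe1 and 1.26 for hspd1, and within libraries 3 and 4 it was -1.29, 0.83 and 1.12 for the same genes. hspb1 had -1.44 in libraries 1 and 2 and -0.39 in libraries 3 and 4.

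As a share of all counts, the 5 inducible genes made up 0.282% ± 0.224 after lesion and 0.541% ± 0.353 in unlesioned cells (SD, n = 4 each). The 3 mitochondrial members made up 0.114% ± 0.00957 in lesioned libraries and 0.0696% ± 0.0224 in unlesioned ones. All 10 genes together took 1.69% ± 0.249 after lesion and 1.71% ± 0.446 in unlesioned cells, most of it hspa8.

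The SD of log2 CPM within groups was 1.84 for hsp70l, 1.76 for hsp90aa1.2, 1.15 for hspb1, 0.99 for dnajb1b and 0.93 for bag3. It was 0.55 for hspa9, 0.43 for hspd1, 0.37 for hspe1, 0.25 for hsp90ab1 and 0.21 for hspa8. Each inducible gene therefore varied more between like libraries than each constitutive one. Among genes of at least 10 CPM, 96.7% had a smaller SD than hsp70l and 4.97% a smaller SD than hspa8.

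**Figure D4:**
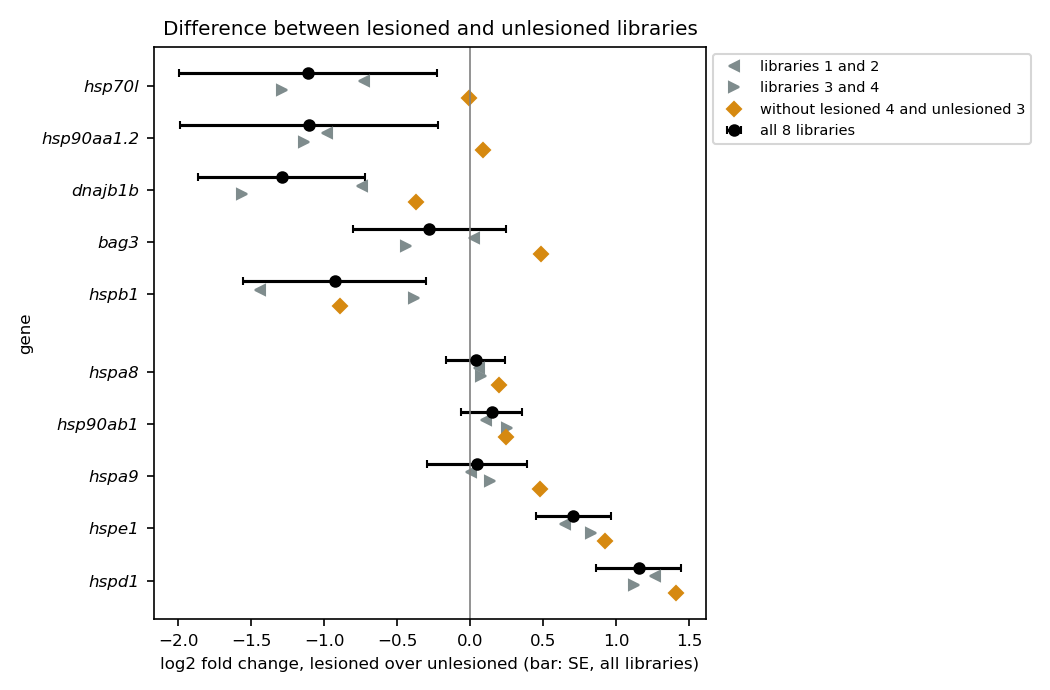
Log2 fold change of each gene, lesioned over unlesioned, with its SE, from all libraries, from libraries 1 and 2, from libraries 3 and 4, and without lesioned library 4 and unlesioned library 3. hspd1 and hspe1 stay above 0 in each, but their groups did not overlap, so leaving out libraries could not change their sign. hsp70l moves from -1.11 with all libraries to -0.00 without that pair, which holds its lowest and its highest library, so a rise was built in.

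Per kilobase of exon, the order by mean RPKM over the 8 libraries was hspa8 at 1392, hsp90aa1.2 at 721, dnajb1b at 603, hsp90ab1 at 440.3, hsp70l at 272, hspe1 at 195, bag3 at 121, hspa9 at 79.2, hspd1 at 68.2 and hspb1 at 20.7. No neighbours in that order kept their places in all 8 libraries: the higher of each pair was higher in 4 to 7 of them. hspa8 exceeded hsp90aa1.2 in 7 libraries and hsp90ab1 exceeded hsp70l in 7. dnajb1b exceeded hsp90ab1 in 4. In lesioned library 4 the inducible hsp70l was at 8.13 RPKM, hsp90aa1.2 at 32.5 and dnajb1b at 109, against 1323 for hspa8 and 410 for hsp90ab1. The lengths are the table's union of exons, which counts every annotated transcript, so RPKM understates genes with long minor transcripts.

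Among all genes of at least 10 CPM that were not members, the pattern nearest to hsp70l over the 8 libraries belonged to a gene that the reference lists as HSPA2, followed by gdf10a, hsp70.3, hsp70.1 and dnaja. Their root mean square differences from hsp70l in centred log2 CPM were 0.18, 0.30, 0.30, 0.30 and 0.31, and the median of 8052 genes was 1.92. Of the members, hsp90aa1.2 was nearest at 0.48, then dnajb1b at 0.90, bag3 at 1.09 and hspb1 at 1.48. hsp70.3 had 499, 1094, 1735 and 38.5 CPM in lesioned libraries and 1441, 1530, 2778 and 1135 CPM in unlesioned libraries. hsp70.1 had 97.9, 229, 715 and 7.57 CPM in lesioned libraries and 357, 281, 1443 and 290 CPM in unlesioned libraries. The HSPA2 entry lies between hsp70.1 and hsp70.3 on chromosome 3. These are close relatives of hsp70l, and reads could be split among them, so each single level is uncertain.

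For hspd1 the nearest patterns were those of pdcd11, nat10, cdk5rap3, aars1 and utp25, at differences of 0.12, 0.15, 0.20, 0.21 and 0.21, with a median of 0.90 over all genes compared. hspe1 stood at 0.28 and hspa8 at 0.66. pdcd11, which acts in ribosomal RNA processing, had 55.0, 82.0, 70.5 and 87.1 CPM in lesioned libraries and 36.5, 33.0, 49.6 and 19.1 CPM in unlesioned libraries. nat10, an RNA acetyltransferase of the nucleolus, had 44.8, 55.9, 40.8 and 67.4 CPM after lesion and 21.7, 22.4, 33.2 and 14.1 CPM in unlesioned cells.

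The wider chaperone network was counted over lists of its genes, and none of those tested passed the adjusted threshold in edgeR. DESeq2 called 4 of them, bag2 lower, and clpp, timm44 and trap1 higher, among 272 genes lower and 406 higher over the whole table. Of all genes tested in edgeR, 6.07% were higher and 5.48% lower at an unadjusted p under 0.05. Over all genes tested, 7514 log2 fold changes were positive and 8245 negative. Scaling by library size alone moved these counts to 8957 and 6802, so sign counts of the lists under that scaling shift with the whole table. The groups did not overlap for 5.32% with lesioned higher and 3.91% with lesioned lower. Of 11 other HSP70 and HSP110 genes tested, 3 had positive and 8 negative log2 fold changes, with a median of -0.29, 1 of them at an unadjusted p under 0.05, and 4 were lowest in lesioned library 4 and highest in unlesioned library 3. The HSPA2 entry, at -1.11, and hspa8b were not in that list. hspa4b, an exchange factor of the HSP110 type, had a positive log2 fold change: its levels were 116, 107, 73.7 and 104 CPM in lesioned libraries and 58.4, 60.8, 45.2 and 19.6 CPM in unlesioned libraries (log2 fold change 1.12 ± 0.34 SE; edgeR adjusted p = 0.234). Its paralog hspa4a, named after its values were seen, had 191, 406, 933 and 115 CPM after lesion and 402, 463, 1903 and 309 CPM in unlesioned cells.

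Of 25 J-domain and other HSP70 cochaperone genes tested, 13 were positive and 12 negative, with a median of 0.04, and 3 were higher and 2 lower at an unadjusted p under 0.05. bag2, an exchange factor, was lower without overlap, at 13.6, 10.4, 5.33 and 7.91 CPM in lesioned libraries and 21.7, 22.5, 16.4 and 33.8 CPM in unlesioned libraries (log2 fold change -1.34 ± 0.39 SE; edgeR adjusted p = 0.229). dnaja2a was higher without overlap, at a log2 fold change of 0.57 ± 0.22 (SE; edgeR adjusted p = 0.335). Of 22 HSP90 and HSP90 cochaperone genes, 12 were positive and 10 negative, with a median of 0.07, and 2 were higher and 0 lower at an unadjusted p under 0.05. Scaling by library size alone gave 14 positive and 8 negative. Among them hsp90aa1.1, which lies 690 bases from hsp90aa1.2 and is best known from skeletal muscle, had 177, 330, 742 and 174 CPM in lesioned libraries and 332, 193, 809 and 195 CPM in unlesioned libraries. Its log2 fold change was -0.10 ± 0.58 (SE; edgeR adjusted p = 0.978), with a positive sign, 0.06, under scaling by library size only. ppid, a cyclophilin that binds HSP90, had a log2 fold change of 0.66 ± 0.22 (SE; edgeR adjusted p = 0.272).

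Of 6 other small heat shock protein genes tested, 4 were positive and 2 negative, with a median of 0.19 and 0 at an unadjusted p under 0.05 in either direction. Of 4 heat shock factors and regulators tested, 1 was positive and 3 negative, 1 of these at an unadjusted p under 0.05. hsbp1a, a binding partner of heat shock factor, was lower at 16.9, 23.99, 28.7 and 15.7 CPM in lesioned libraries and 28.3, 42.5, 42.4 and 35.2 CPM in unlesioned libraries (log2 fold change -0.80 ± 0.29 SE; edgeR adjusted p = 0.317). The 2 groups overlapped by lesioned library 3.

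Of 18 other genes of mitochondrial folding and proteolysis tested, 12 were positive and 6 negative, with a median of 0.43, and 3 were higher and 0 lower at an unadjusted p under 0.05. Scaling by library size alone gave 14 positive and 4 negative, with a median of 0.61. clpp, a protease of the mitochondrial matrix, had 109, 87.3, 83.3 and 127 CPM in lesioned libraries and 62.9, 30.5, 43.4 and 37.5 CPM in unlesioned libraries, with no overlap (log2 fold change 1.22 ± 0.27 SE; edgeR adjusted p = 0.159). timm44, which anchors mitochondrial HSP70 at the import channel, had 44.6, 37.1, 25.8 and 50.4 CPM after lesion and 26.2, 12.1, 8.28 and 9.54 CPM in unlesioned cells, with overlap (log2 fold change 1.49 ± 0.41 SE; edgeR adjusted p = 0.214). grpel2, an exchange factor of mitochondrial HSP70, went the other way, at a log2 fold change of -0.63 ± 0.29 (SE; edgeR adjusted p = 0.451). trap1, the mitochondrial HSP90, named after its values were seen, had 58.2, 56.2, 55.5 and 58.1 CPM in lesioned libraries and 41.2, 30.4, 16.8 and 17.5 CPM in unlesioned libraries.

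Other gene groups were measured in the same libraries. The immediate early genes, 31 tested, which cells switch on within minutes of a disturbance, had 3 positive and 28 negative log2 fold changes, a median of -0.69 and 0 calls in edgeR. Over all genes tested, 7514 were positive and 8245 negative. At an unadjusted p under 0.05, 10 were lower and 0 higher, against 5.48% and 6.07% of all genes tested. Without overlap, 5 were lower, against 3.91% of all genes tested. DESeq2 called 4 lower, dusp2 and fosab and also egr1 and nr4a3, which are named for that call. Over the whole table it called 272 genes lower. edgeR called fosab lower with a term for libraries 1 and 2 against 3 and 4, and dusp2 lower without lesioned library 4 and unlesioned library 3. The summed level of the 31 immediate early genes was 13110 to 17880 CPM in lesioned libraries and 25120 to 29820 CPM in unlesioned libraries. Lesioned library 4 was at 13620 CPM, above lesioned library 1 at 13110 CPM. Abundant genes such as fosab weigh most in that sum. jun, named after its values were seen, had 897, 972, 75.75 and 79.0 CPM in lesioned libraries and 1556, 1868, 82.0 and 148 CPM in unlesioned libraries. It thus differed more by library number than by group. fosab, a subunit of the AP-1 transcription factor, averaged 2823 ± 1053 CPM after lesion and 7319 ± 2077 CPM in unlesioned cells (SD, n = 4 each; edgeR adjusted p = 0.162), and dusp2, a phosphatase gene, had 147, 130.3, 112 and 70.7 CPM in lesioned libraries and 413, 462, 155 and 437 CPM in unlesioned libraries (edgeR adjusted p = 0.153). The summed level of 27 reporter cell markers ranged from 17970 CPM, in lesioned library 4, to 26980 CPM after lesion and from 24460 to 32150 CPM in unlesioned libraries. Skeletal muscle markers summed to 748 to 5987 CPM after lesion and 1455 to 3735 CPM in unlesioned cells, epidermis markers to 1716 to 4901 and 932 to 7115 CPM, and neuron and glia markers to 42.3 to 113 and 56.8 to 245 CPM. Leukocyte markers summed to 41.6 to 137 CPM after lesion and 21.0 to 236 CPM in unlesioned cells, endothelial markers to 68.4 to 103 and 70.0 to 126 CPM, erythroid markers to 7.58 to 29.6 and 5.97 to 18.4 CPM, and notochord and cartilage markers to 97.0 to 403 and 179.9 to 283 CPM. Of the erythroid markers, hbbe3 was at 0 in every library. Their part in the results on the heat shock genes was not tested.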

How the data were processed

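The authors deposited raw read counts per gene and library, without normalization. The submitters' processing notes list bcl2fastq 2.19.1, GSNAP, the build GRCz11 and featureCounts 1.6.2. Per the file headers, the counter was version 1.6.3 of that tool, with Ensembl 92, a minimum mapping quality of 1 and no use of strand. The 92 spike-in entries were left out of all fits. The kit was SMART-seq2, without molecular identifiers, so counts are not independent molecules, and the common dispersion of 0.561 (a biological coefficient of variation of 74.9%) limits precision.

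Of the 31901 identifiers, the reference table gave a zebrafish symbol for 16585, 11076 were assigned one from shared neighbouring genes (15 on each side, at least 2 shared), 1517 kept the given symbol and 2723 had none. Tested on 3718 paralogs of known symbol, this returned 2524 correctly, 55 as another and 1139 unresolved. Of the 10 members, hsp70l and dnajb1b had a zebrafish symbol and the other 8 were assigned from neighbours.

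The groups were compared, lesioned over unlesioned, in edgeR 4.0.16 (R 4.3.3) with TMM factors, filterByExpr and a two-sided quasi-likelihood test, adjusted by Benjamini-Hochberg over the 15759 genes that passed. The threshold was an adjusted p of 0.05, the SE is the log2 fold change divided by the root of F, and RPKM used the deposited Length column (bases) and TMM-adjusted totals. The procedure was tested on simulated data. DESeq2 1.42.0 and limma 3.58.1 were alternatives, with other scalings, filters and subsets of libraries. Same-numbered lesioned and unlesioned libraries deviated together (correlations of 0.192, 0.182, 0.232 and 0.154, all above 0.1), so the numbers were treated as pairs in an alternative fit. The check did not single out numbers 1 and 2: lesioned 1 with unlesioned 2 gave 0.199, and lesioned 2 with unlesioned 1 gave 0.182.

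Besides the members and pdgfrb, the named genes were drawn from each chaperone list: the most abundant gene and the 2 with the lowest p, 2 immediate early genes by p, and the 5 genes nearest in pattern to hsp70l and to hspd1; exceptions are marked. Marker genes served as sums. The members and lists were chosen with earlier results of these data known. Promoter and protein sequences were not used here.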

Additional observations from a re-analysis of the deposited data

Results flagged for a closer look

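Among 106 groups of 4 libraries checked, 11 had a library set apart from the other 3 by more than Dixon's limit. Chance flags about 1 in 20 groups if values are normally distributed, but gene levels were taken as CPM without a log, where high values stand out more. Also, 4 of the 11 belong to genes picked for their likeness to hsp70l. The flags are therefore not independent, and their number is not compared with chance. Unlesioned library 3 was the one set apart for hsp70l at 1857 CPM (484 to 587 in the other unlesioned libraries), dnajb1b at 3727 CPM (898 to 1377), bag3 at 540.2 CPM (184 to 236) and hspa8 at 11940 CPM (8449 to 8933). The same library was high for the HSPA2 entry at 2238 CPM (610.4 to 720.4), hsp70.1 at 1443 CPM (281 to 357), dnaja at 1066 CPM (182 to 279) and gdf10a at 406 CPM (174 to 210.3), the 4 genes so picked. It was low for dusp2, an immediate early phosphatase gene, at 155 CPM (413 to 462).

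Unlesioned library 4 was low for hsp90ab1, at 1626 CPM against 2458 to 2624 CPM in the other unlesioned libraries. Lesioned library 4 was high for hsf2, a heat shock factor gene, at 20.7 CPM against 10.4 to 11.2 CPM in the other lesioned libraries.

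Synthetic spike-in RNAs, which entered no comparison, gave 86 counts in lesioned library 3, 64 in lesioned library 4, 158 in unlesioned library 3 and 87 in unlesioned library 4. Lesioned libraries 1 and 2 had 3 and 2 counts, and unlesioned libraries 1 and 2 had 2 and 0.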

How the results depend on the processing

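The number of genes called over the whole table moved most: 406 higher and 272 lower with DESeq2, 5 and 1 without the filter on low counts, 7 and 7 with a term for libraries 1 and 2 against 3 and 4, 5 and 1 in libraries 1 and 2 only, and 0 higher in libraries 3 and 4 only. Leaving out lesioned 4 and unlesioned 3 together, chosen after seeing the data, gave 7 higher and 3 lower, and leaving out 1 library gave 3 to 7 higher and 0 to 1 lower, with both highest counts without unlesioned replicate 3. With DESeq2, 1 member was called higher; in every other setting 0 were called. With the replicate block, the pairing gave 2 genes higher and 0 lower, changed no call of a member, and gave adjusted p-values of 0.350 for hsp70l, 0.169 for hsp90aa1.2, 0.172 for dnajb1b, 0.153 for hspd1 and 0.197 for hspe1.

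Some signs changed, and beyond the choice of libraries the cause was not tested. Without lesioned 4 and unlesioned 3, log2 fold changes were 0.086 for hsp90aa1.2, 0.49 for bag3, 0.17 for hsp70.1, 0.14 for dnaja, 0.047 for gdf10a, 0.79 for hsp90aa1.1 and 0.089 for pdgfrb. For all of these but pdgfrb the pair holds the lowest lesioned and the highest unlesioned level, so a rise was built in. hsp70.1, dnaja and gdf10a were also picked for their likeness to hsp70l. With library size only the log2 fold changes were 0.062 for hsp90aa1.1 and 0.00999 for pdgfrb. bag3 had 0.027 in libraries 1 and 2 only, and in libraries 3 and 4 only hsbp1b had 0.0036 and pdgfrb 0.020. Leaving out 1 library at a time, bag3 ranged from -0.83 to 0.18, hspa8 from -0.061 to 0.17, hspa9 from -0.17 to 0.38, hsp90aa1.1 from -0.76 to 0.57 and pdgfrb from -0.36 to 0.062. hsp70l, hspb1, dnajb1b, hspd1, hspe1 and hsp90ab1 kept their sign in all 20 settings. Yet hsp70l came to -0.0049 without lesioned 4 and unlesioned 3, and hsp90ab1 to 0.0094 without unlesioned replicate 4. For hspd1 and hspe1, whose groups did not overlap, leaving out libraries could not change the sign.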
